A study of Mus musculus with 9 samples.

Results

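The protein shell of the cytosolic ribosome was examined, subunit by subunit, in nuclear RNA of mouse hippocampal pyramidal cells. Members were taken from the deposited table by symbol, with Rpl and a number, or Rplp0 to Rplp2, for the large subunit and Rps and a number, or Rpsa, for the small one. This gave 85 of 31052 genes, 49 of the large and 36 of the small subunit. The symbols leave out Fau, which encodes a ribosomal protein joined to a ubiquitin-like protein, and Rack1, a scaffold protein of the small subunit. They take in 6 genes of a pseudogene class in RefSeq or GENCODE M21, namely Rpl6l, Rpl32l, Rps3a2, Rps3a3, Rps4l and Rps12l1. Rpl10l and Rpl39l, testis copies of Rpl10 and Rpl39, were not analysed here.

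Of the 9 libraries, 5 came from place cells, which fire at particular locations of an environment, and 4 from silent cells. Both groups carry the genotype label WT, and both were picked by the same route of two-photon imaging in navigating mice, light tagging and nuclear isolation, so that no group without tagging enters the comparison. The library kit, SMART-Seq mRNA LP, copies polyadenylated RNA of few cells or nuclei into cDNA. The sources used here give neither the age of the mice nor the number of nuclei in a library. Titles carry a different number after the word Mouse for each library, without saying whether each is a separate animal. The p-values therefore measure only the spread between these libraries, which may be technical in part.

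A eukaryotic ribosome has a small subunit, which binds the mRNA and reads its codons, and a large subunit, which joins amino acids and holds the tunnel through which the new chain leaves. Each ribosomal protein is present in about equal number with the others in a finished ribosome, and unassembled ones are broken down. Their mRNAs belong to the class with a terminal oligopyrimidine (TOP) start, a C at the cap followed by a run of pyrimidines, through which the growth-regulating kinase mTORC1 and the protein Larp1 control their translation. In neurons, mRNAs of ribosomal proteins are also found in dendrites and axons.

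The start-site sequences below are those of members with the smallest p between the groups, and they show how the pyrimidine run around the start differs from one member to the next. Each holds 40 bases of the RefSeq promoter table (GRCm38.p6), 25 before and 15 from the annotated start on, 5′ to 3′ on the gene's own strand. Capitals mark the letters CTTTC where they lie between 10 bases before and 15 bases after the start. Rpl13 holds these letters too, but they begin upstream of that window and are counted as outside it. Rpl35 (chr2:39005117-39005156, minus strand), Rplp2 (chr7:141447626-141447665, plus strand), Rpl27a (chr7:109519170-109519209, plus strand) and Rpl13 (chr8:123102325-123102364, plus strand) belong to the large subunit. Rps25 (chr9:44407689-44407728, plus strand), Rps24 (chr14:24490653-24490692, plus strand) and Rps9 (chr7:3704016-3704055, plus strand) belong to the small subunit.
Rpl35: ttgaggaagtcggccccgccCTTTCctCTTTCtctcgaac
Rplp2: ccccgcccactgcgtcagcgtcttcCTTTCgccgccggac
Rpl27a: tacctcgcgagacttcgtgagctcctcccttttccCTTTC
Rpl13: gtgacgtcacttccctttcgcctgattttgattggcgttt
Rps25: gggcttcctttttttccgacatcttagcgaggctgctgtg
Rps24: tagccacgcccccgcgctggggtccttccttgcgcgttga
Rps9: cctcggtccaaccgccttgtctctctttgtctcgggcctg

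Of the 85 members, 60 had a promoter in the table, 36 of the large and 24 of the small subunit. The letters CTTTC, read on the sense strand in that 25-base window, stood in 14 of the 60 (23.3%), against 3.68% of 27025 symbols of all kinds. Among members they stood in 11 of 36 of the large and 3 of 24 of the small subunit. Longer promoter words were counted over the whole 300 bases, 250 before and 50 after the start, on both strands. CCGGAAG, the core that ETS-family factors such as Gabpa bind, stood in 25 of 60 members (41.7%) against 9.93% of all symbols. CGCGAGA stood in 14 of 60 (23.3%) against 2.92%, and the Sp1-type word GGGCGG in 36 of 60 (60.0%) against 38.2%. A match is a description of letters near an annotated start, which can lie some bases away from the start used in these cells. None of the words contains another, but 1 promoter can hold several.

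Reads recovered from the table numbered 14.0 to 22.4, in units of 1000000, per library, and 14176 to 20990 genes had a read. Leading principal components set apart silent replicate 1 (the first, 21.7% of the variance), silent replicate 4 and place replicate 3 (the second, 17.7%) and place replicates 1 and 3 (the third, 16.6%). Markers of pyramidal cells (6 of 6 tested) summed to 4463 ± 369 RPM in the 5 place and 4628 ± 647 in the 4 silent libraries (SD), where RPM is recovered reads per 1000000 of the library. Oligodendrocyte markers, all 9 with a positive fold, summed to 189.7 to 3196 RPM in place and 119.6 to 539 in silent libraries. Opalin was at or near 0 in the silent ones. Astrocyte markers reached 1260 RPM in place replicate 3 against 48.2 to 316 elsewhere, and dentate granule markers 557 there against 87.8 to 250 elsewhere. Interneuron markers summed to 768 RPM in silent replicate 3, where Vip alone had 644, and to 27.3 to 208 elsewhere. Microglia markers were highest in place replicate 2 and silent replicate 4, at 133 RPM each. Y-linked Eif2s3y had 353 to 782 RPM in all silent libraries and 687 in place replicate 1, and no read in the other place libraries. Xist, the X-linked RNA of female cells, stood at 772 to 1443 RPM in place replicates 2 to 5 and at 0 to 2.94 in place replicate 1 and silent replicates 2 to 4. Silent replicate 1 held both, with 317 RPM of Xist and 546 of Eif2s3y. Sex-linked reads thus nearly followed the groups, apart from place replicate 1 and from silent replicate 1, which held both kinds. A part of sex and a part of the group cannot be told apart here. What part these differences between libraries have in the values of ribosomal protein genes was not tested.

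Levels of different members can be set side by side only per length of transcript, here the principal GENCODE M21 transcript of each. Where several transcripts of a gene shared the best principal rank, the longest was taken, which lowers the level per kb. Ranks per kb therefore depend on this choice. Among the 47 tested large subunit members the level ran from 1.10 to 127 RPM per kb, with a median of 37.9. Among the 34 tested small subunit members it ran from 2.55 to 151, with a median of 44.0. Highest in the large subunit were Rpl41 (127 ± 42.0 RPM per kb, SD, n = 9), a very short basic peptide between the subunits, Rpl4 (101 ± 33.7), whose loop lines the exit tunnel, and Rpl3 (82.6 ± 21.2), which reaches towards the peptidyl transferase centre. Highest in the small subunit were Rps21 (151 ± 27.2), Rps27 (127 ± 44.0), a zinc-binding protein, and Rps14 (111 ± 28.2), which lines the platform. The 3 of each subunit lay within about 1 SD of their neighbours in rank, so that their order is not fixed.

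**Figure D1:**
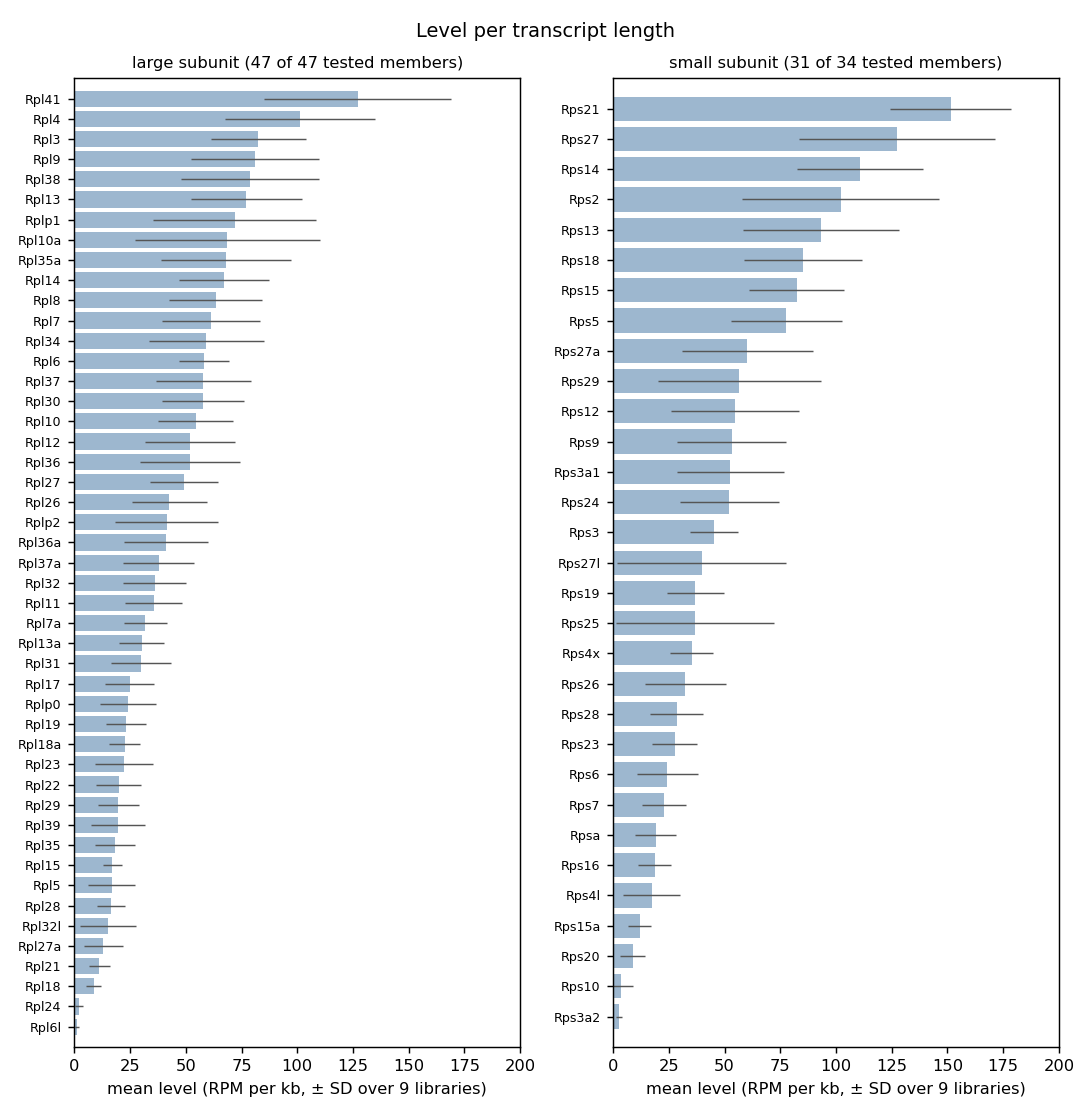
Mean level of each tested member in RPM per kb of its principal transcript, large subunit left and small subunit right, with bars showing the mean and lines the SD over 9 libraries (cut at 0). Levels decline without a gap from Rpl41 (127) and Rps21 (151) down to Rpl18 (8.75) and Rps20 (8.83), and below them stand Rpl24, Rpl6l, Rps10 and Rps3a2. The low rank of Rpl18 and Rps20 goes with the long transcripts taken for them (2989 and 3706 bases). Before division by length they stood at 26.2 and 32.7 RPM, where the medians of their subunits were 32.9 and 37.8.

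At the low end stood coding members as well as pseudogene-class ones. Rpl24, which forms a bridge between the subunits, stood at 2.16 ± 1.75 RPM per kb (SD, n = 9). Its levels were 0, 2.44, 2.09, 1.05 and 0.637 RPM in place replicates 1 to 5 and 0.214, 0.748, 2.70 and 3.26 in silent replicates 1 to 4. Rps10, a protein at the entry of the mRNA channel that is ubiquitinated when ribosomes collide, stood at 3.57 ± 5.40 RPM per kb, with 0.522, 0.465, 6.44, 2.00 and 0.159 RPM in place and 0.0713, 0, 4.42 and 14.4 in silent libraries. Both were thus near the floor in several libraries of either group, and their groups overlapped. Rpl23a, which sits at the exit of the tunnel, had reads in 4 of 9 libraries and was not tested. It stood at 0, 0.640, 0, 1.0 and 0.0531 RPM in place and 10.1, 0, 0 and 0 in silent libraries, where 0 reads allow up to 0.196 RPM in the shallowest of the libraries without a read.

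Many members have near-identical copies that took reads too. The table lists 228 pseudogene symbols of 56 members, taken only where the member's symbol is followed by -ps. Copies under other names were not counted, so that these counts and sums may be too low. Reads shared between a gene and its copies may be split or lost in counting, so that single members are uncertain. The 5 pseudogene symbols of Rpl23a summed to 5.99 RPM, or 82.0% of the reads of gene and copies together. Those of Rps10 summed to 3.91 RPM (55.2%). Rpl24 had no symbol of this form in the table, which does not show that it has no copy. Of the other members that were not tested, Rps3a3 stood at 0.0455 to 1.92 RPM, and Rps12l1 had 1 read, in silent replicate 4. Over all members the pseudogene symbols of the large subunit summed to 204 ± 52.1 RPM in place and 213 ± 63.4 in silent libraries, and those of the small subunit to 103 ± 28.7 and 102 ± 28.0 (SD, n = 5 and 4). These sums overlapped between the groups.

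The spread of single members between libraries was set beside that of all genes. The coefficient of variation (SD over mean, across 9 libraries) had a median of 39.2% over large and 42.9% over small subunit members, against 66.5% over all genes tested, which have a somewhat lower median level (28.4 against 34.3 RPM). The summed level had a coefficient of variation of 5.18% in the large and 11.6% in the small subunit, where a sum over many genes varies less than single genes by averaging alone. Among the tested members under 25%, each singled out here after its values were seen, were Rps21 at 18.0%, Rpl6 at 19.5% and Rps3 at 23.5%. Members with single low libraries included Rps20, a protein of the head of the small subunit, at 4.24 RPM in place replicate 1 and 14.2 to 72.6 elsewhere.

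**Figure D2:**
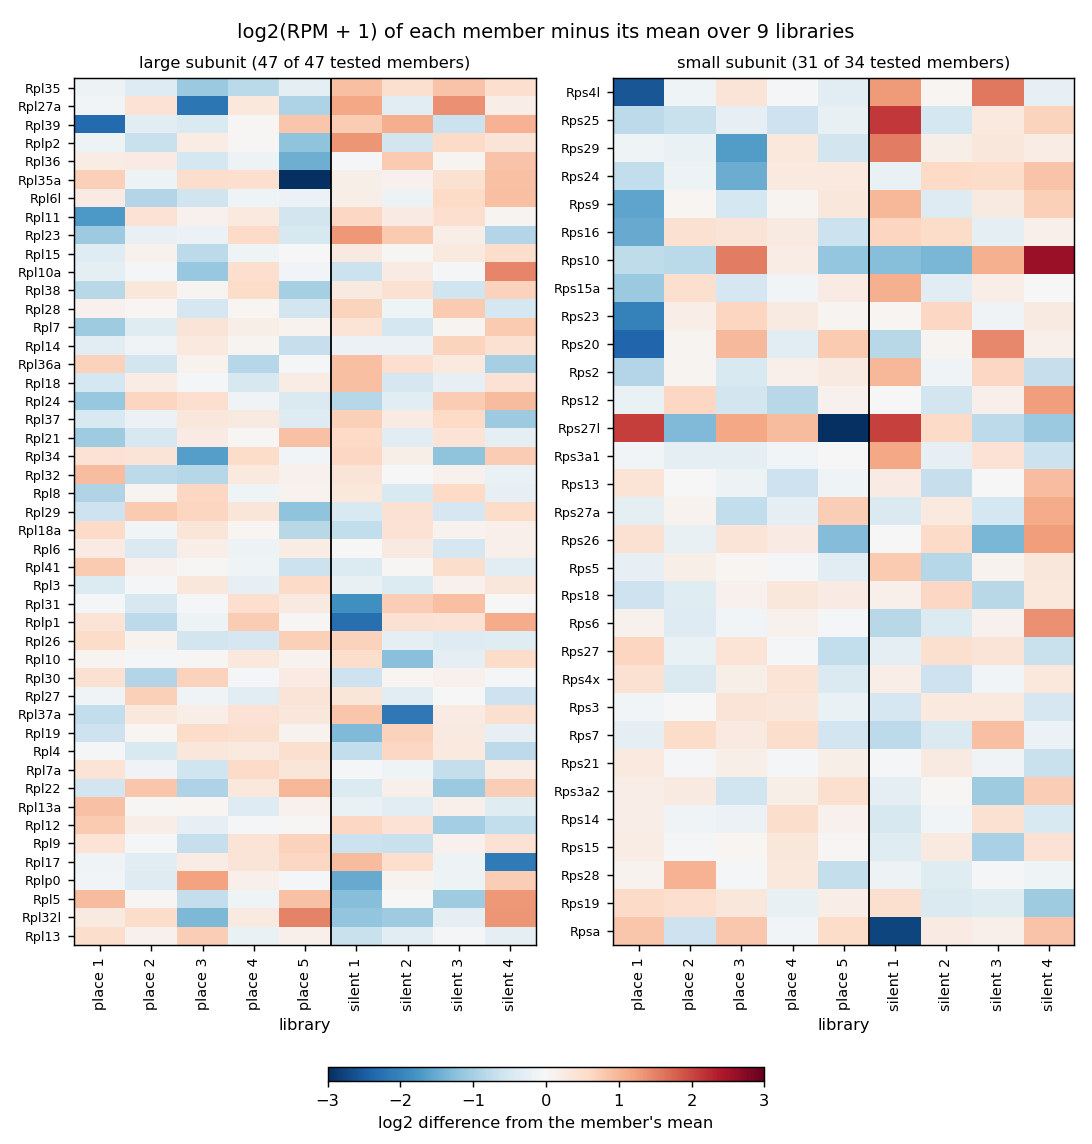
Colour gives log2(RPM + 1) of each tested member (vertical axis, ordered by log2 fold) in each library (horizontal axis) minus the member's mean over 9 libraries, with red above and blue below the mean. The black line parts place from silent libraries, and strong colours sit in single squares, such as Rps25 in silent replicate 1 and Rpsa in the same library.

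The 49 large subunit genes summed to 1799, 1644, 1838, 1871 and 1864 RPM in place replicates 1 to 5 and to 1841, 1792, 1884 and 2003 in silent replicates 1 to 4. The groups overlapped, with means of 1803 ± 93.4 (SD, n = 5) and 1880.0 ± 90.0 (SD, n = 4) and a ratio of place to silent of 0.959. Silent replicates 3 and 4 lay above every place library, and place replicate 2 below every silent one. Small subunit transcripts summed to 1189.6, 1299, 1248, 1359 and 1339.5 RPM in place and to 1708, 1322, 1474 and 1535 in silent libraries. Their means were 1287 ± 69.0 and 1509.7 ± 159, a ratio of 0.853. Silent replicates 1, 3 and 4 lay above every place library, and silent replicate 2 lay below place replicates 4 and 5. In bulk libraries, fewer cells of a type and less RNA per cell cannot be told apart.

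**Figure D3:**
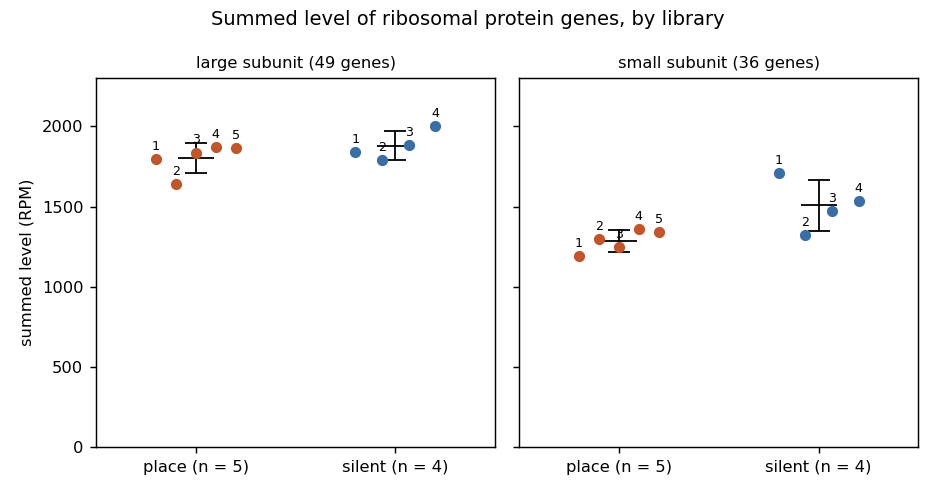
Summed level in RPM (vertical axis, from 0) of the 49 large and 36 small subunit genes in each library, with points numbered by replicate and black lines giving the mean and SD of each group. In the large subunit silent replicates 3 and 4 lie above every place library and place replicate 2 below every silent one, and in the small subunit silent replicate 2 (1322) lies among the place libraries (1189.6 to 1359).

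Of the 36 small subunit members, 22 had a lower mean in place than in silent libraries. Relative to the net difference between the summed means, in which some members go the other way, Rps25 made up 21.2%, Rps24 19.2% and Rps2 16.1%, the 3 largest contributions. Rps2, which lines the mRNA entry and was singled out after its values were seen, stood at 56.0, 109, 74.4, 114 and 124 RPM in place and 208, 95.5, 159 and 63.5 in silent libraries, highest in silent replicate 1 with overlapping groups. Without these 3 the remaining 33 genes summed to 1100.3 ± 23.4 RPM in the 5 place and 1197 ± 91.4 in the 4 silent libraries (SD), a ratio of 0.919. The 3 were left out because of their contributions, so that a smaller difference without them was fixed in advance. Silent replicates 1, 3 and 4, at 1271, 1158 and 1273 RPM, still lay above every place library (highest 1128), and silent replicate 2 stood at 1086. On the log2 scale the ratio of the summed small subunit level was -0.23, and -0.11 without silent replicates 1 and 4 and place replicate 3, the libraries set apart on the first and second components. The silent libraries left out are those with the highest small subunit sums, and place replicate 1, set apart on the third component, stayed in.

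The ratio of large to small subunit reads was 1.51, 1.27, 1.47, 1.38 and 1.39 in place and 1.08, 1.36, 1.28 and 1.31 in silent libraries. The groups overlapped, at 1.404 ± 0.0954 (SD, n = 5) and 1.25 ± 0.121 (SD, n = 4). Silent replicate 1 was the lowest. Both subunits together took 0.294 to 0.355% of a library's reads. Silent replicate 4 held the highest value of 12 of 47 tested large (25.5%) and 11 of 34 tested small subunit members (32.4%), where it held that of 14.9% of all genes tested.

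Place and silent libraries were then compared gene by gene, to ask which transcripts tell the kinds of cell apart, and none did past the threshold. With limma, 0 of 14142 genes tested (0% called, in either direction) reached an adjusted p under 0.05, and the smallest adjusted p was 0.649. Voom on the recovered reads, an alternative added after the data were seen, also called 0. At an unadjusted p under 0.05, 583 genes (4.12%) had higher and 188 (1.33%) lower values in place, and none of the 81 tested members was among them. Of all genes tested, 6048 (42.8%) had a negative fold and the median log2 fold was 0.13. Folds are given ± SE. The fold was negative in 24 of 47 large subunit members (median log2 fold -0.02, from -1.24 to 0.60) and in 21 of 34 small subunit members (median -0.20, lowest -1.20). The large subunit median was 0.00 and that of all genes 0.22 on the values as deposited. Quantile normalization gave -0.16 for the large subunit, -0.32 for the small one and -0.01 for all genes. With the number of genes detected as a covariate, these medians were -0.08, -0.06 and -0.04. Without silent replicates 1 and 4 and place replicate 3 they were -0.15, -0.0017 and 0.008. Groups did not overlap in 1 of the 81 tested members, Rpl35, with lower values in place, where 0.629% of all genes tested did so in that direction and 1.22% in the other.

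**Figure D4:**
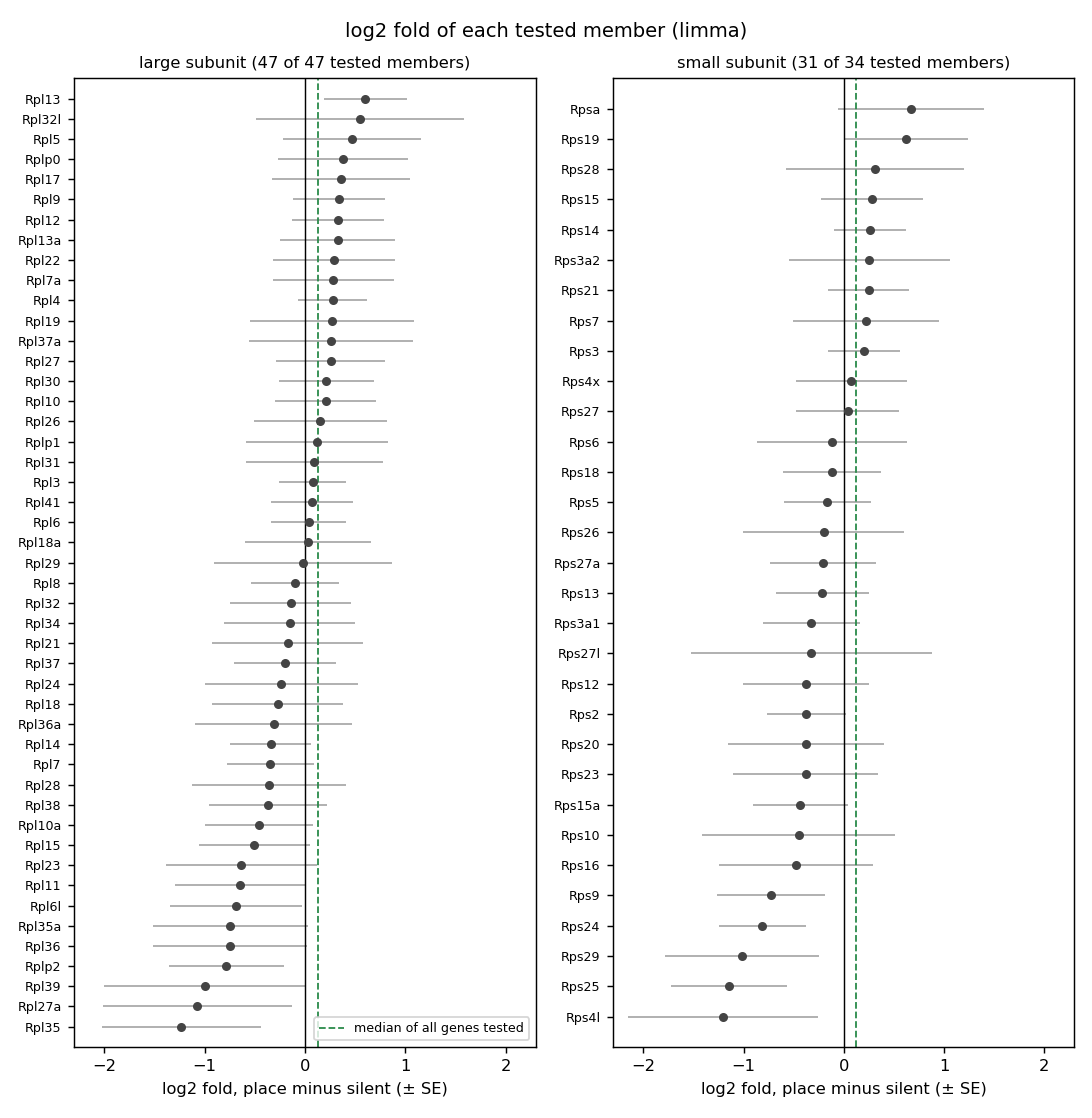
log2 fold of each tested member, place minus silent, with points giving limma's estimate and lines ± 1 SE, large subunit left and small subunit right. The dashed line is the median of all genes tested (0.13), and folds run from -1.24 (Rpl35) to 0.60 (Rpl13) in the large subunit and upwards from -1.20 (Rps4l) in the small one. Of the 34 tested small subunit members 31 are drawn.

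Rpl35 stands at the rim of the exit tunnel, where factors that receive the new chain bind. Its levels were 13.8, 11.6, 6.59, 8.33 and 12.4 RPM in place and 29.6, 21.9, 28.5 and 22.4 in silent libraries. Every silent library lay above every place library. The log2 fold was -1.24 ± 0.79 (SE), with a limma adjusted p of 0.895. Leaving out any 1 library kept the fold between -1.34 and -1.10. This SE is wider than the 2 groups alone would give, since limma draws a gene's spread towards that of genes at its level.

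Of the other exit tunnel proteins of the large subunit, Rpl39 and Rpl4 are given here, and both overlapped between the groups. Rpl39, a short protein that lines the tunnel, stood at 1.11, 7.56, 6.91, 9.83 and 18.0 RPM in place and 17.0, 21.6, 5.77 and 20.9 in silent libraries (limma log2 fold -1.0 ± 1.01, adjusted p = 0.918). Silent replicates 1 and 3 lay within the range of the place libraries. Rpl4 stood at 144, 108, 185, 181 and 206 RPM in place and 88.1, 226, 180.2 and 85.7 in silent libraries (0.28 ± 0.34, limma adjusted p = 0.935), where silent replicate 2 was highest of all. Without silent replicates 1 and 4 and place replicate 3 its log2 fold was -0.38. Rpl27a stood at 11.4, 16.9, 1.94, 15.5 and 5.94 RPM in place and 28.1, 9.42, 32.8 and 14.1 in silent libraries (-1.07 ± 0.94, limma adjusted p = 0.906), with place replicate 3 lowest and the groups overlapping.

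Folds of the stalk proteins, which recruit the translational GTPases to the large subunit, had both signs. Those of Rplp0 and Rplp1 were smaller than their SE. Rplp0, which anchors the stalk, stood at 27.6, 22.2, 69.1, 32.5 and 28.4 RPM in place and 9.55, 31.7, 26.1 and 49.3 in silent libraries (limma log2 fold 0.38 ± 0.65). Rplp1 stood at 40.9, 17.1, 27.0, 52.2 and 30.8 RPM in place and 5.56, 42.3, 41.0 and 66.4 in silent libraries (0.12 ± 0.71). Its mean was 33.6 RPM in place and 38.8 in silent libraries, so that the sign of its fold depends on the log2 scale. Rplp2, the partner of Rplp1 in the stalk dimers, stood at 31.8, 22.0, 41.1, 36.4 and 14.8 RPM in place and 89.7, 23.9, 52.9 and 46.4 in silent libraries (-0.78 ± 0.58, limma adjusted p = 0.899). All 3 overlapped between the groups, and silent replicate 1 was the lowest library for Rplp0 and Rplp1 and the highest for Rplp2. Rpl12, at the base of the stalk, stood at 105, 68.7, 50.9, 57.7 and 62.1 RPM in place and 92.5, 80.9, 29.0 and 35.3 in silent libraries, with the 2 lowest values in silent replicates 3 and 4.

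Rpl5 and Rpl11 bind the 5S rRNA together, and outside the ribosome they bind Mdm2, the ubiquitin ligase of p53. Rpl5 stood at 56.5, 29.3, 17.1, 26.3 and 54.0 RPM in place and 11.3, 28.4, 13.3 and 72.7 in silent libraries (limma log2 fold 0.47 ± 0.69). Rpl11 stood at 7.44, 36.8, 29.5, 33.4 and 18.0 RPM in place and 42.0, 31.9, 38.7 and 28.4 in silent libraries (-0.64 ± 0.66). The folds had opposite signs, and both pairs of groups overlapped. In place replicate 1 Rpl5 was at its highest of the place libraries and Rpl11 at its lowest of all.

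Among large subunit members with positive folds, Rpl13 had the smallest p. It stood at 83.6, 62.6, 97.2, 49.97 and 63.8 RPM in place and 35.9, 45.4, 56.4 and 46.8 in silent libraries (limma log2 fold 0.60 ± 0.41, adjusted p = 0.899). Only place replicate 4 lay below a silent library, replicate 3, and leaving out any 1 library kept the fold between 0.48 and 0.72. Rpl9, near the site where elongation factors bind, stood at 74.5, 54.3, 34.3, 75.2 and 91.4 RPM in place and 35.3, 34.7, 62.0 and 76.4 in silent libraries (0.34 ± 0.46), with overlap throughout. Its 4 pseudogene symbols summed to 28.7 RPM.

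**Figure D5:**
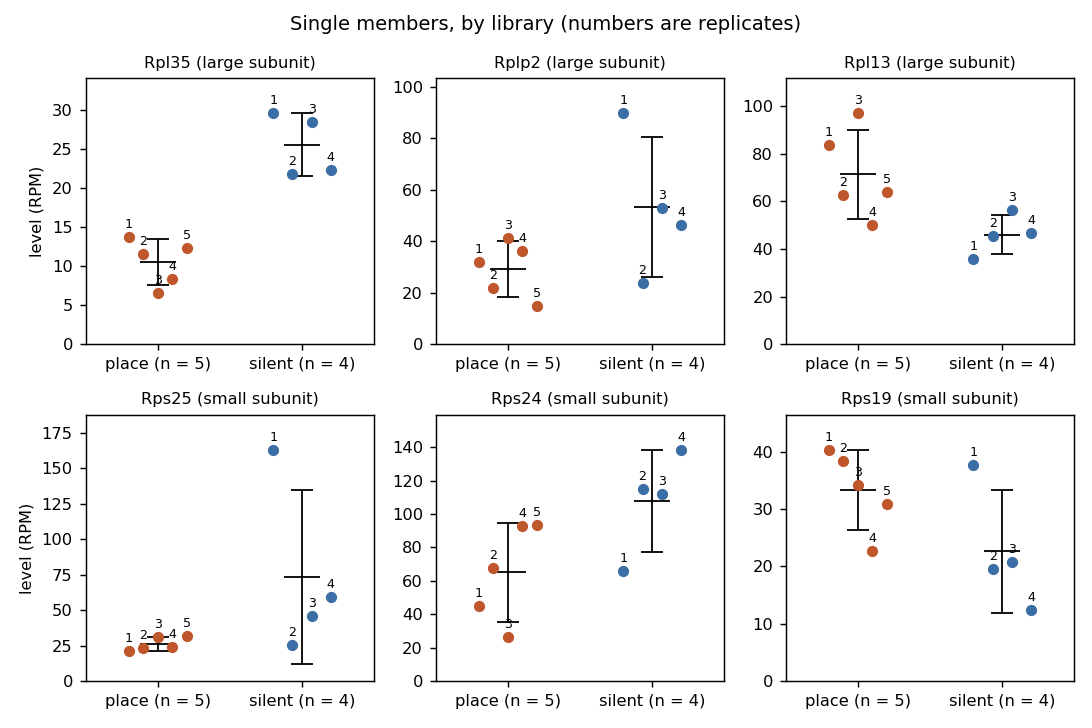
Level in RPM (vertical axes, each from 0) of 6 members, 3 of each subunit, by group, with points numbered by replicate and black lines giving the mean and SD. Rpl35 is the member whose groups do not overlap, and Rplp2 and Rps25 are highest in silent replicate 1 (89.7 and 163 RPM).

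In the small subunit the smallest p belonged to Rps25, a protein of the head near the exit site that several viral internal ribosome entry sites need. It stood at 20.9, 23.1, 30.9, 23.7 and 31.7 RPM in place and 163, 25.5, 45.5 and 59.2 in silent libraries. Silent replicate 2 lay among the place libraries and silent replicate 1 far above all others. The log2 fold was -1.15 ± 0.58 (SE, limma adjusted p = 0.895), and between -1.53 and -0.65 as single libraries were left out.

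Rps24, a protein of the body of the small subunit, stood at 44.8, 67.7, 26.4, 92.8 and 93.6 RPM in place and 65.7, 115, 112 and 138 in silent libraries (limma log2 fold -0.81 ± 0.44, adjusted p = 0.895). Here silent replicate 1 lay among the place libraries and the other 3 above all of them. Rps9, which helps set the accuracy of decoding, stood at 14.0, 45.7, 29.98, 46.3 and 55.1 RPM in place and 87.7, 33.3, 52.9 and 72.1 in silent libraries (-0.72 ± 0.54, limma adjusted p = 0.899). Its groups overlapped, with place replicate 1 lowest. Rps29, a zinc-binding protein of the head, stood at 17.2, 16.3, 5.23, 23.7 and 12.6 RPM in place and 56.4, 21.3, 24.0 and 22.3 in silent libraries (-1.01 ± 0.77, limma adjusted p = 0.90). Place replicate 4 was the only place library above a silent one.

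Among small subunit members with a positive fold was Rps19, the gene most often mutated in Diamond-Blackfan anaemia. It stood at 40.4, 38.4, 34.3, 22.8 and 30.9 RPM in place and 37.8, 19.6, 20.7 and 12.4 in silent libraries (limma log2 fold 0.62 ± 0.62, adjusted p = 0.918). Silent replicate 1 lay among the place libraries and the other silent libraries below all of them. Rpsa, on the back of the small subunit and also described as a laminin receptor, stood at 55.3, 19.4, 54.0, 28.5 and 45.2 RPM in place and 3.63, 36.6, 33.9 and 56.3 in silent libraries (0.67 ± 0.73). Its positive fold rested on silent replicate 1, and without that library it was -0.13.

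Of the abundant small subunit members, Rps14 stood at 97.4, 77.9, 75.1, 123 and 91.9 RPM in place and 59.8, 79.1, 116 and 61.5 in silent libraries (limma log2 fold 0.26 ± 0.36). Rps21 stood at 71.8, 56.8, 65.9, 57.5 and 66.2 RPM in place and 57.0, 70.7, 54.1 and 36.8 in silent libraries (0.25 ± 0.40). Both overlapped, with the lowest value in a silent library. Rps6, the substrate of the S6 kinases downstream of mTORC1, stood at 21.3, 14.5, 18.2, 21.3 and 19.0 RPM in place and 10.5, 14.3, 21.5 and 51.7 in silent libraries (-0.12 ± 0.75), close together in place and spread over both sides of it in silent libraries.

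Members with a second copy in the genome were set beside that copy. Rpl3 stood at 81.0 to 161 RPM in every library, and Rpl3l, its muscle-restricted copy, had reads only in place replicate 2, at 3.08 RPM. Rpl22 stood at 15.9 to 72.2 RPM (limma log2 fold 0.29 ± 0.61). Its copy Rpl22l1 stood at 0.0653, 19.2, 28.1, 50.8 and 26.2 RPM in place and 36.9, 37.6, 34.8 and 51.2 in silent libraries (-1.40 ± 0.95, limma adjusted p = 0.899). Place replicate 4 lay above 3 of the silent libraries, and the other place libraries below all of them.

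Rps27 stood at 24.5 to 66.1 RPM (limma log2 fold 0.04 ± 0.52). Its copy Rps27l, a p53 target, stood at 50.1, 3.84, 25.9, 22.3 and 0 RPM in place and 48.9, 16.8, 6.01 and 4.61 in silent libraries (-0.33 ± 1.20), with high and low libraries in both groups. Rps4x, which is X-linked, stood at 21.3 to 45.6 RPM (0.08 ± 0.55) and had a coefficient of variation of 26.9%. Rps4l, a pseudogene-class copy, stood at 1.31, 11.3, 16.8, 12.2 and 9.76 RPM in place and 32.0, 13.2, 39.4 and 10.4 in silent libraries (-1.20 ± 0.95, limma adjusted p = 0.903), with overlap between the groups.

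The pairs Rpl7 and Rpl7l1 and Rpl36a and Rpl36al overlapped between the groups in each gene. Rpl7 had a log2 fold of -0.34 ± 0.43 (SE) and Rpl7l1 of -0.58 ± 1.14. Rpl36a had -0.31 ± 0.78 and Rpl36al 0.33 ± 1.11. Rpl10, a late-joining protein at the peptidyl transferase side whose testis copy was not analysed, stood at 42.0 to 55.1 RPM in place and 18.0 to 64.8 in silent libraries (0.21 ± 0.51), with the silent libraries on both sides of the place ones. Of the other pseudogene-class members, Rpl6l stood at 0 to 1.18 RPM in place and 0.648 to 2.46 in silent libraries, and Rps3a2 at 0.889 to 2.97 and 0.368 to 3.76.

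Rps27a and Fau are made joined to ubiquitin or a ubiquitin-like protein. Rps27a stood at 25.7 to 73.5 RPM in place and 30.1 to 95.5 in silent libraries (limma log2 fold -0.21 ± 0.53). Fau, outside the symbol rule, stood at 23.0, 14.3, 21.2, 22.7 and 21.1 RPM in place and 24.9, 24.1, 23.8 and 29.4 in silent libraries (-0.32 ± 0.66, limma adjusted p = 0.967). Fau's silent libraries all lay above its place libraries, with 23.8 RPM in the lowest silent and 23.0 in the highest place library, while the groups of Rps27a overlapped.

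The tested members outside the named ones were 26 of the large and 16 of the small subunit. Their log2 folds ran from -0.75 (Rpl36) to 0.55 (Rpl32l) in the large and from -0.48 (Rps16) to 0.31 (Rps28) in the small subunit, negative in 14 of 26 and 11 of 16, and the smallest limma adjusted p among them was 0.918. Those shown next were singled out after their values were seen, for what single libraries did. Rpl35a, a protein of the large subunit that is mutated in some cases of Diamond-Blackfan anaemia, stood at 48.1, 25.9, 41.9, 41.3 and 2.18 RPM in place and 33.0, 31.6, 40.2 and 54.2 in silent libraries (limma log2 fold -0.75 ± 0.77), low only in place replicate 5. Rpl10a stood at 36.2, 43.3, 19.6, 63.2 and 41.6 RPM in place and 28.1, 52.7, 42.7 and 123 in silent libraries (-0.46 ± 0.54), with silent replicate 4 far above the rest. Rps15a stood at 25.5, 79.2, 39.9, 53.6 and 67.1 RPM in place and 120.1, 45.4, 65.2 and 56.3 in silent libraries (-0.43 ± 0.47). Rps3a1, at the exit of the mRNA channel, stood at 39.2 to 47.9 RPM in the 5 place libraries and at 109, 40.4, 65.2 and 30.5 in the silent ones (-0.32 ± 0.48). Both were highest in silent replicate 1, as were Rps25, Rps2, Rps9 and Rps29. That library held the highest value of 8 of 34 tested small subunit members (23.5%), against 15.5% of all genes tested.

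Genes around the ribosome were read from the same fit, and none of them passed (smallest limma adjusted p = 0.893). Of 19 translation factors and other genes of the TOP class, 14 had a negative fold and the median was -0.22. Of these, Naca, a partner of new chains at the tunnel exit, stood at 46.6, 42.7, 36.3, 44.6 and 43.9 RPM in place and 59.8, 54.3, 50.3 and 72.4 in silent libraries (limma log2 fold -0.45 ± 0.43) without overlap, and was singled out after its values were seen. The elongation factor Eef1a1 went the other way, at 302 ± 52.7 RPM in the 5 place and 239 ± 47.9 in the 4 silent libraries (SD, log2 fold 0.34 ± 0.24, limma adjusted p = 0.899). Of 39 ribosome biogenesis genes, 15 had a negative fold (median 0.23), and 3 (7.69%) had an unadjusted p under 0.05, against 5.45% of all genes tested. Utp4 and Riok1, which act in making the small subunit, had log2 folds of -0.82 ± 0.33 and -1.01 ± 0.42, and Polr1a, the largest subunit of RNA polymerase I, had 2.24 ± 0.89.

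Of 12 chaperones and import factors of ribosomal proteins, 8 had a negative fold (median -0.22), and of 14 genes of the mTORC1 pathway 5 (median 0.09). Eif4e, the cap-binding protein, had a log2 fold of -1.48 ± 0.70 (SE) and the RNA-binding Larp4 of 1.08 ± 0.47. Of 9 factors known to bind promoters of ribosomal protein genes, 5 had a negative fold (median -0.15). Mitochondrial ribosomal proteins, encoded in the nucleus and built into another ribosome, had a negative fold in 20 of 49 large subunit genes (median 0.14) and in 14 of 29 small subunit genes (median 0.02). No difference between these lists and the cytosolic ribosomal proteins was tested.

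Large subunit members with CTTTC at the start had a negative fold in 8 of 11 (median log2 fold -0.37), and those with a promoter but without it in 9 of 24 (median 0.12). In the small subunit the counts were 2 of 3 (median -0.20) and 13 of 21 (median -0.21). Rpl35, Rplp2 and Rpl27a, shown above with these letters in capitals, are among the 11. These counts describe members chosen with the folds known, and the split was not tested.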

How the data were processed

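Nuclear RNA of 5 place and 4 silent libraries was compared. Members and gene lists were chosen with earlier results of these data known. The authors deposited 1 table of normalized read signal for 31052 genes. STAR, HTSeq and the GRCm39 build, per the submitters' processing notes, went into it (no version given). For annotation, strandedness and normalization tool the entry is "not given in the sources used here", and with unknown strand, reads of overlapping genes on opposite strands cannot be told apart.

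The deposited signal was found to be whole reads times 1 number per gene, with no factor per library. Values had to lie within 0.05 of a whole number, plus an allowance that grew with the reads and made the check weak for high values. Reads were recovered for all 85 members by dividing by that number, and genes left unrecovered held at most 0.001% of a library's reads. Reads were scaled to RPM, that is reads per 1000000 of the library's total (14.0 to 22.4, in units of 1000000). Genes with at least 1 RPM in at least 4 libraries were kept, and limma 3.58.1 in R 4.3.3 was fitted to log2(RPM + 1), place minus silent, with an intensity trend, no covariate and Benjamini-Hochberg adjustment over 14142 genes (threshold 0.05). Folds are on this scale, which understates the change of low genes. The steps were tested on simulated data.

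Within each subunit, the named members were the 5 with the smallest p in each direction, the 3 highest and 3 lowest per kb, members with a second copy, the stalk proteins, Rpsa, Rps6, Rps27a, Rpl5 and Rpl11, and up to 3 genes with the smallest p in each other list. Alternatives were other library scalings, the pseudocount, the filter, the number of genes detected as a covariate, each library left out and, added after the data were seen, voom, leaving out 3 libraries, and the pseudogenes. Some members are not reported here by name and are not drawn, though they are counted.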

Additional observations from a re-analysis of the deposited data

Results flagged for a closer look

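A library far from the others of its group was looked for in 84 groups of values (named members, subunit sums and their ratio, by group), and was found in 2, where chance gives about 1 in 20. Rps29 stood at 56.4 RPM in silent replicate 1, and the next silent library at 24.0. Rplp0 stood at 69.1 RPM in place replicate 3, and the next place library at 32.5.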

How the results depend on the processing

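No member passed the threshold under any alternative. The 20 named members refitted were those with the smallest p in each direction. Most refits share nearly all libraries or only rescale them, so that a kept direction was likely in advance. Of 335 refits of these 20 members, 332 kept the direction of the fold (smallest limma adjusted p = 0.642). The exceptions were Rpsa, with a log2 fold of -0.13 without silent replicate 1 and -0.034 without silent replicates 1 and 4 and place replicate 3 (-0.13 to 1.08 as single libraries were left out), and Rpl4, at -0.38 without those 3 libraries (0.07 to 0.53). The median fold of the large subunit was -0.16 with quantile normalization and -0.15 without the 3 libraries, and it ran from -0.154 to 0.049 as single libraries were left out. That of the small subunit was -0.32 with quantile normalization, -0.063 with the number of genes detected as a covariate and -0.0017 without the 3 libraries. The median of all genes tested was -0.01, -0.04 and 0.008 in the same settings. As single libraries were left out, the small subunit median ran from -0.24 to -0.03, nearest to 0 without silent replicate 4. The log2 ratio of the summed small subunit level was -0.11 without the 3 libraries and -0.29 to -0.17 as single libraries were left out. The cause of these changes was not tested. Over all genes, leaving out single libraries gave 0 to 2 genes with lower values in place, the 2 without place replicate 1 being Y-linked Eif2s3y and Ddx3y, named after their values were seen (smallest limma adjusted p = 5.82e-06). The edgeR and DESeq2 fits that had been planned on the recovered reads were not run, and voom was run on those reads in their place. No paired analysis was possible because the replicate numbers were given in the order of the samples and the labels tie no place library to a silent one. With 5 and 4 libraries, the SE of a member's log2 fold was 0.33 to 1.2, and differences larger than the SE could also be missed. Rpl35, with the lowest fold of all tested members (-1.24 ± 0.79, SE), had a 95% confidence interval of -2.90 to 0.43.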
